A study of Mus musculus with 6 samples.

Results

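The Krüppel-like factors are zinc-finger transcription factors, and the measurements below describe how open the chromatin was at and around 9 of their genes, Klf2, Klf3, Klf4, Klf6, Klf7, Klf9, Klf10, Klf12 and Klf13, in dividing and non-dividing B-cells of the mouse. A peak, meaning a stretch of open chromatin called by the authors, was taken as belonging to one of these genes if it overlapped the gene's body. A peak that overlapped no gene was taken if the nearest protein-coding gene was one of the 9 and lay within 100 kb (RefSeq annotation of GRCm38, the assembly also called mm10). This gave 158 of 97124 peaks, from 7 at Klf9 to 42 at Klf13. No measured signal entered that assignment of peaks, but the genes were chosen with earlier results of these data known.

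Bone marrow B-cells taken directly from PEtg mice were assayed by ATAC-seq, where a transposase inserts sequencing adapters into exposed DNA. The labels give that strain name for both groups and do not spell it out, and they give neither the age of the mice nor the promoter behind the H2B-GFP reporter. H2B-GFP is a fluorescent histone that is diluted at each division. Cells high for H2B-GFP carry the label quiescent, and those low for it the label proliferating, with n = 3 samples in each group. Separate mice are not stated for the samples, so a p-value here refers only to the spread among these 6 samples, some of which may be technical. In such bulk samples, more cells with an open site and a more open site in each cell cannot be told apart.

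Krüppel-like factors bind GC-rich and CACCC-type DNA elements through zinc fingers at the end of the protein, and each carries its own activating or repressing region in front of them. Many are known for holding cells out of the cycle. Klf2 keeps lymphocytes at rest and controls the genes by which they leave and enter tissues, Klf4 restrains the division of B-cells, and Klf9 has been linked to the rest of naive B-cells. Klf6 is an early-response gene that can raise the cell cycle inhibitor p21, Klf10 is induced by TGF-beta, and Klf13 is known as an activator of the chemokine gene Ccl5. Klf3 and Klf12 act mainly as repressors that recruit the corepressor CtBP, and Klf7 is best known from neurons and blood progenitors.

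The promoters were searched for CACCC and GGGCGG, the types of element that this family binds. The RefSeq promoter table (GRCm38.p6) held 8 of the 9 genes, all but Klf10. The 250 bases before the listed start are shown for the 2 genes whose signal outside the promoter changed against the promoter, Klf6 and Klf9, and for the pair most closely tied to lymphocyte rest, Klf4 and Klf2. They are written 5′ to 3′ in the direction of the gene, and capitals mark CACCC and GGGCGG on either strand (as GGGTG and CCGCCC on the other).
Klf6 at chr13:5861239-5861488, plus strand: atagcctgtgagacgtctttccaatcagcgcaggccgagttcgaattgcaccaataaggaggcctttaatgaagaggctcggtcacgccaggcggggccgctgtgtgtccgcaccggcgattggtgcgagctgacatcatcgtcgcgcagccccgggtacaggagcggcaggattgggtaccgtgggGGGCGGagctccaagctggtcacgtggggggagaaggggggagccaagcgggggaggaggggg
Klf9 at chr19:23140976-23141225, plus strand: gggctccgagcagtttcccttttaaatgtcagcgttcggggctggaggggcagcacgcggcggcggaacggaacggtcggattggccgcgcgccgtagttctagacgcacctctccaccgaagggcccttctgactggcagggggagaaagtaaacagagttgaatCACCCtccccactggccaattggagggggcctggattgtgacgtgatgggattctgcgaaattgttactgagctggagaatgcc
Klf4 at chr4:55532476-55532725, minus strand: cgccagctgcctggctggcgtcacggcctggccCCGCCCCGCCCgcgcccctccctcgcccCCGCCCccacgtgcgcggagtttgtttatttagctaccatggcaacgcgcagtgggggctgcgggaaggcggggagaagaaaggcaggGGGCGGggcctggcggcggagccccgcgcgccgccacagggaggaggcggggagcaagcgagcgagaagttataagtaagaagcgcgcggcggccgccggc
Klf2 at chr8:72318812-72319061, plus strand: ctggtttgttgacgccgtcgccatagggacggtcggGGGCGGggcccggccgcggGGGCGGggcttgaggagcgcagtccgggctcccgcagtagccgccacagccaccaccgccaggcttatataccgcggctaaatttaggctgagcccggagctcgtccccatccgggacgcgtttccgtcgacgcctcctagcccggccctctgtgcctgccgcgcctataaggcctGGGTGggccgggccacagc
CACCC was found in 6 of the 8 windows and GGGCGG in 6 of the 8, against 52.0% and 32.7% of 32851 RefSeq windows of this length. Klf4 had 4 GGGCGG matches, some of them overlapping, and no CACCC, and Klf9 had 1 CACCC and no GGGCGG. The GC content of the 8 windows lay between 48.0% at Klf12, whose listed start lies inside the gene, and 78.4% at Klf3. A match is a description of the letters and says nothing about binding.

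The deposited values are a signal per peak, already scaled by the authors so that the samples had nearly equal totals (20904407 to 21518630). Reads recovered from the steps in the values summed to between 8051542 in proliferating sample 1 and 48595766 in proliferating sample 3, with a median of 27 and 179 reads per peak. Proliferating sample 1 therefore had the largest counting error. Promoter peaks of 10 B-cell marker genes were strong in all samples, with summed signals of 15707 to 17252 in quiescent and 15813 to 18939 in proliferating samples. Their single genes moved both ways, with 8 of 199 tested peaks higher and 4 lower (6.03%, against 6.72% of all tested peaks). The promoter of Blk was higher (0.81, adjusted p = 0.0234) and those of Ms4a1 (-0.95, adjusted p = 0.0108) and Pax5 (-0.55, adjusted p = 0.0354) were lower. Among markers of other cells, 12 myeloid genes had 9 of 82 tested peaks higher and 4 lower in quiescent samples, together 15.9% of them, and their promoter signal summed to 1324 to 1680 against 912 to 989. Limma-voom on reads recovered from the values called 8 higher and 6 lower of these (17.1%, against 15.0% of all peaks in that fit). Of the granulocyte genes in that list Mpo and Elane had no peak, while Csf3r had 12 peaks (3 of them lower), Lyz2 3, Cebpe 2 and S100a8 1. The higher peaks lay at Ly86 (4, with 1 lower), Csf1r (3 of 6), Itgam (1 of 19) and Fcgr3 (1 of 5), and none at Cebpa or Cd14. The promoters of Csf1r (1.06, adjusted p = 0.0174) and Fcgr3 (1.03, adjusted p = 0.0108) were higher, and no promoter peak passed as lower. The Csf1r promoter had means of 535 against 257, and that of Fcgr3 481 against 234. At Cd14 the mean was lower in quiescent samples (47.7 against 54.0). Csf3r, Cebpa, Cebpe, Mpo, Elane and S100a8 had no promoter peak and added nothing to the promoter sums. For 7 plasmacytoid dendritic and plasma cell genes the promoter sums were 2363 to 2612 against 1894 to 2333, with no promoter peak at Jchain. Of 115 tested peaks 12 were higher and 2 lower (12.2%), and 14 and 8 by limma-voom (19.1%). The higher ones lay at Prdm1 (5), Siglech (3), Jchain (2) and Sdc1 (2), and the lower ones at Tcf4 (2). Of 8 promoter peaks 1 passed, that of Siglech (1.35, adjusted p = 0.0174). The sums over all peaks of Siglech (0.91, adjusted p = 0.0264) and Jchain (1.07, adjusted p = 0.0095) passed as higher, where 7.63% of all genes passed. T and NK cell genes had 3 of 45 peaks higher and none lower (6.67%, near the 6.72% of all peaks). Limma-voom called 4 higher and 4 lower (17.8%), and the sums were 1380 to 1915 against 1213 to 1353. Only Cd8a, Thy1 and Klrb1c had promoter peaks. The strongest of Klrb1c, with means of 977 against 917, made up most of these sums. Of the CD3 chain genes Cd3g had no peak, Cd3e 2, Cd3d 1 and Cd247 14, 1 of them higher. The other higher peaks lay at Ncr1 (1 of 2) and Klrb1c (1 of 15, at a promoter). Erythroid and megakaryocyte genes had 1 of 22 peaks lower (4.55%), 4 by limma-voom (18.2%), and sums of 640 to 662 against 706 to 770. Gata1, Klf1, Epor and Itga2b had no promoter peak. The part of such cells in the results below was not tested.

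More chromatin sites around the Krüppel-like factor genes were higher than lower in the quiescent cells. All 19 peaks that passed lay outside promoters, as did 94.4% of the 5876 that passed among all peaks. Of the 139 peaks tested after weak peaks were left out, 19 (13.7%) passed an adjusted p of 0.05 (limma, adjusted over all 87411 peaks tested), where 6.72% of all tested peaks passed. That share lay between those of the myeloid marker peaks (15.9%) and the plasmacytoid dendritic and plasma cell marker peaks (12.2%) in the same test. There were 15 higher peaks (10.8%, against 4.01% of all) and 4 lower ones (2.88%, against 2.72%). The median log2 fold change, quiescent over proliferating, was 0.17 over the 139 peaks and -0.01 over all peaks. With recovered reads scaled to their total, both medians were below 0, at -0.03 and -0.26. On that scale 31.9% of all peaks had a log2 fold change above 0, against 49.3% on the deposited one. The 3 quiescent values did not overlap the 3 proliferating ones at 50 of the 139 peaks (36.0%, against 30.4% of all).

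Of the 19 calls, 17 lay between genes, the class that held 67.6% of the family's tested peaks and 31.4% of all tested peaks. Of 94 tested peaks between genes, 14 were higher and 3 lower, where 7.59% of all peaks between genes passed. Of 33 in gene bodies, 1 at the end of Klf2 was higher and 1 in Klf9 lower, where 7.52% passed. None of 12 tested promoter peaks, those within 1 kb of a gene start, passed, where 2.19% of all promoter peaks did. At that share 12 peaks are too few to tell their count from the background. There were 2 promoter peaks with an unadjusted p under 0.05, where 12.7% of all promoter peaks had one. With limma-voom on recovered reads 1 passed, that of Klf6 (0.44, adjusted p = 0.0214), where 8.47% of all did. The difference between these classes was not tested across the family.

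These counts depended on single samples. Without quiescent sample 2 or quiescent sample 3 no Krüppel-like factor peak passed, although 36 (25.9%) and 35 (25.2%) had an unadjusted p under 0.05, against 19.1% and 18.9% of all peaks. Over all peaks these omissions left 79 higher and 82 lower calls (0.184%) in the first case and 0 in the second. On recovered reads with the same samples left out, limma-voom called 16 (11.5%, against 6.13% of all) and 15 (10.8%, against 5.56%). Without proliferating sample 2 there were 4 calls, 3 at Klf6 and that in Klf9 (2.88%, against 0.904% of all peaks). Without proliferating sample 3 there were 5, 3 at Klf6 and 2 at Klf4 (3.60%, against 1.33%). A fit blocked on the replicate number called 37, of which 25 were higher and 12 lower (26.6%, against 18.3% of all peaks, 10.2% higher and 8.14% lower). Scaled to total recovered reads instead, a scale on which the median of all peaks moved to -0.26, limma-voom called 16 higher (11.5%) and 9 lower (6.47%), including 17 of the 19. In that fit 15.0% of all peaks passed, 4358 higher (4.99%) and 8740 of 87411 lower, so that the family's share was above that of all peaks among the higher calls and below it among the lower ones.

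**Figure D1:**
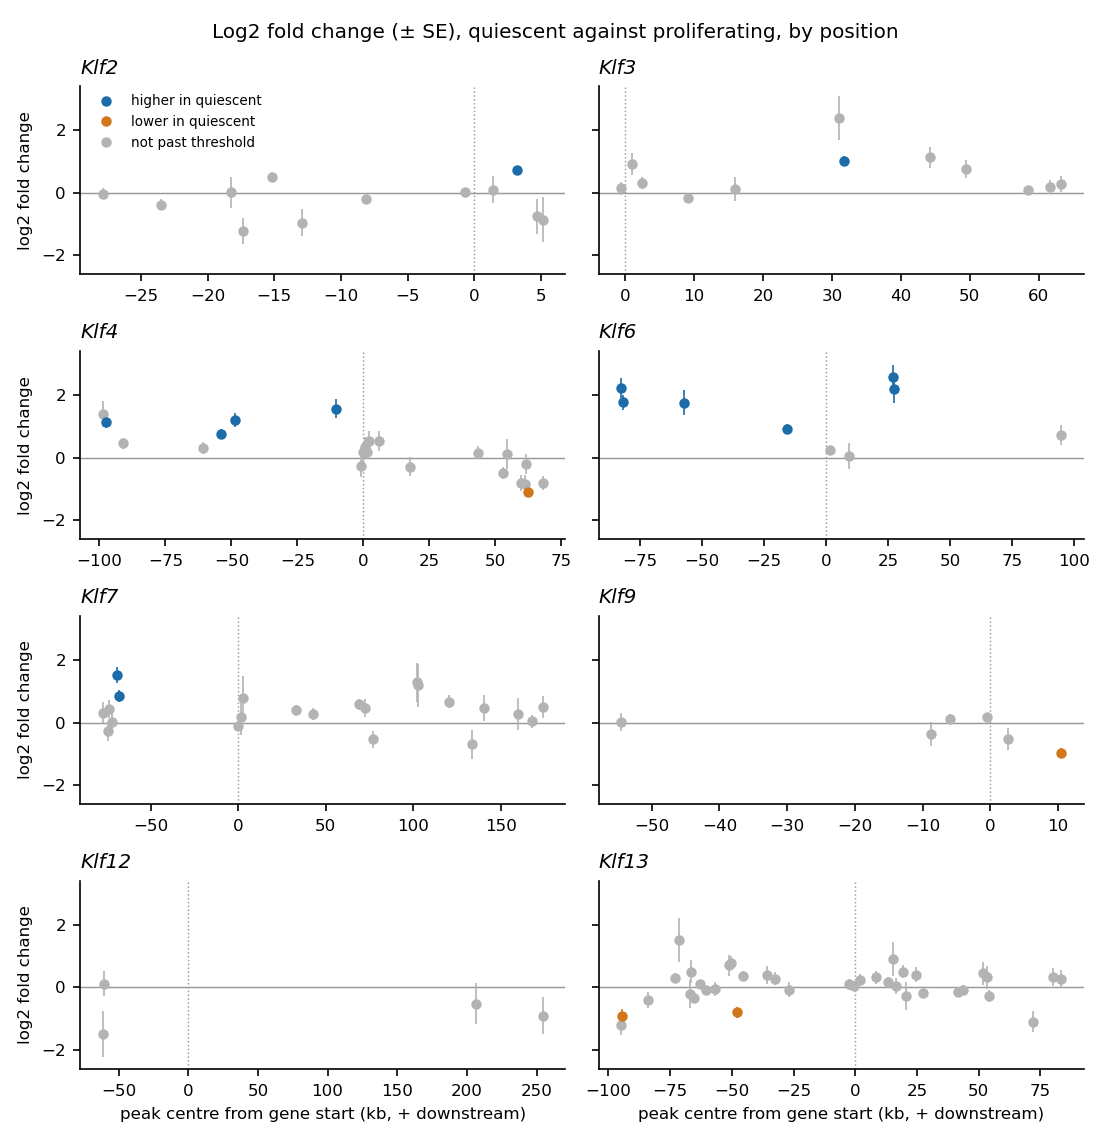
Log2 fold change with its standard error of each tested peak (y axis) against the distance of the peak's centre from the gene start in kb, positive in the direction of transcription (x axis), for the 8 genes with a listed strand. Blue and orange points passed as higher or lower in quiescent samples. The higher peaks of Klf6 lie on both sides of the gene, and those of Klf4 lie upstream with a lower one downstream.

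Klf6 had the most peaks that passed, spread over both of its flanks. Its gene lies on the plus strand of chromosome 13 (5861489 to 5870393) and had 11 peaks, of which 9 were tested, and 6 of these 9 were higher in quiescent cells. The log2 fold changes of the 9 ran from 0.06 to 2.56 and all were above 0. Scaled to total recovered reads, 8 of 9 were, against 31.9% of all peaks. The 6 sites that passed all lay between genes, 4 upstream and 2 downstream.

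The nearest of them, at chr13:5844985-5846427 and 15.1 kb upstream, was also the strongest. It read 696, 750 and 634 in quiescent samples 1, 2 and 3 against 425, 339 and 332 in proliferating samples 1, 2 and 3 (0.93 ± 0.16 SE, adjusted p = 0.0145). All quiescent samples stood above all proliferating ones. A site 56.5 kb upstream, at chr13:5803357-5804980, held 446, 279 and 323 against 183, 54.5 and 103 (1.75 ± 0.39, adjusted p = 0.0336). Here sample 1 was the highest of each group, and the groups still did not overlap.

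The remaining upstream sites were a neighbouring pair. At chr13:5779409-5779794, 81.7 kb upstream, quiescent samples gave 188, 188 and 185 and proliferating ones 69.5, 42.3 and 54.2 (1.77 ± 0.24, adjusted p = 0.0085). Its neighbour at chr13:5778446-5778772 gave 86.6, 70.7 and 59.7 against 14.7, 11.6 and 18.0 (2.22 ± 0.32, adjusted p = 0.0103). Both were higher in every quiescent sample than in any proliferating one. Without proliferating sample 2, and again without proliferating sample 3, both still passed. The peak at chr13:5778446-5778772 rested on 6 to 91 recovered reads per sample, the fewest in proliferating sample 1.

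Downstream, the site with the family's highest fold change among peaks that passed lay 17.6 kb beyond the gene, at chr13:5888007-5888615. It read 74.6, 138 and 76.5 in quiescent samples against 10.2, 13.9 and 22.5 in proliferating ones (2.56 ± 0.39, adjusted p = 0.0112). Quiescent sample 2 was the highest, and the lowest quiescent value was above every proliferating value. The site rested on 4 to 84 recovered reads per sample, the fewest in proliferating sample 1. Scaled to total recovered reads, its log2 fold change was 1.93. Beside it, the weak peak at chr13:5888728-5889047 read 30.0, 41.0 and 29.2 against 7.80, 3.74 and 8.72 (2.20 ± 0.47, adjusted p = 0.0299). It rested on 5 to 29 recovered reads per sample. Of the 6 sites, it was the one that limma-voom on those reads did not call (adjusted p = 0.0532).

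The promoter of Klf6 was its strongest peak, and its difference did not pass. At chr13:5860410-5865793 the signal was 2527, 2317 and 2273 in quiescent and 2155, 1847 and 1987 in proliferating samples (0.25 ± 0.11, adjusted p = 0.185). The groups did not overlap. Summed over its 11 peaks, Klf6 reached 4296, 3972 and 3770 against 3066, 2406 and 2655, with every quiescent sample above every proliferating one. It was the 1 gene of the 9 whose summed signal passed (0.57 ± 0.11, adjusted p = 0.0211), where 7.63% of 14255 genes did. Leaving out 1 sample at a time gave differences of 0.49 to 0.66, and the sum no longer passed without quiescent sample 2, quiescent sample 3, proliferating sample 2 or proliferating sample 3 (adjusted p up to 0.0963).

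**Figure D2:**
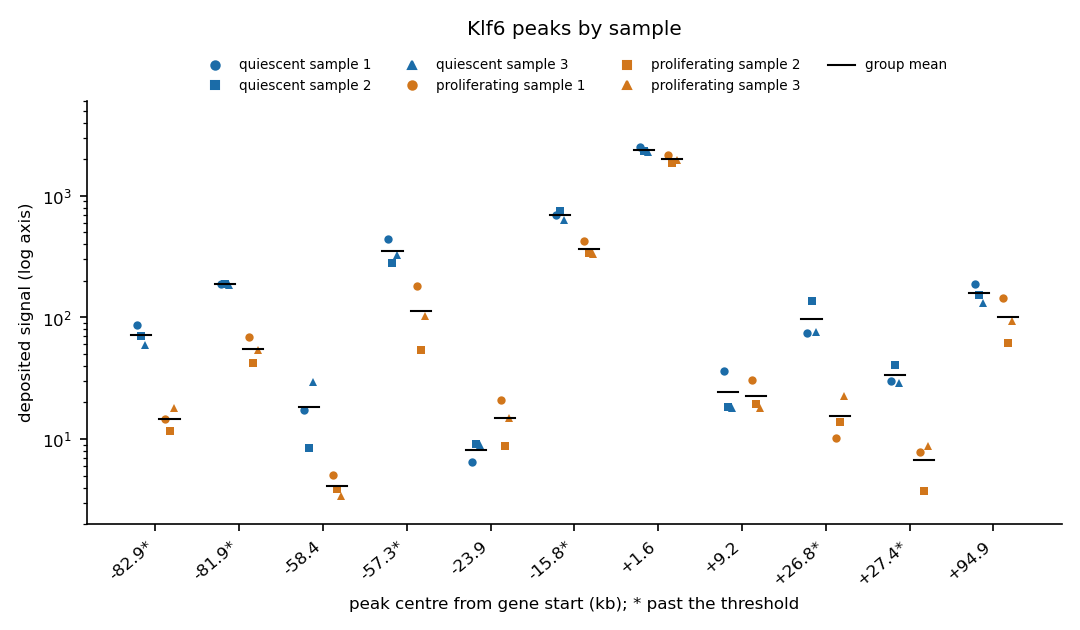
Deposited signal (y axis, log scale) of the 11 Klf6 peaks in each sample, ordered by the distance of the peak's centre from the gene start in kb (x axis), with black lines for group means and asterisks for peaks that passed. The promoter peak holds 1847 to 2527 in all samples, while the 6 peaks with asterisks are higher in every quiescent sample. The 2 weakest peaks by mean were not tested.

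Set against its own promoter, the signal outside the promoter rose at Klf6 and fell at Klf9. For each gene the summed signal of all other peaks was divided by that of its promoter peaks. This cancels a factor common to all peaks of a sample, but not the authors' scaling, which depended on intensity. At Klf6 the ratio was 0.70, 0.71 and 0.66 in quiescent and 0.42, 0.30 and 0.34 in proliferating samples, a log2 difference of 0.98 ± 0.17 (adjusted p = 0.0124). At Klf9 it was 1.22, 1.24 and 1.26 against 2.02, 2.22 and 1.94 (-0.73 ± 0.15, adjusted p = 0.0235). In neither gene did the groups overlap. With recovered reads in place of the deposited signal, the same test gave 0.68 at Klf6 (adjusted p = 0.0356) and -0.80 at Klf9 (adjusted p = 0.0151). The ratios hold the peaks that passed singly, so they are no separate evidence. At Klf9 the only such peak was that in the gene body. The 3 tested upstream peaks of Klf9 between genes had log2 fold changes of -0.35 to 0.10, and none passed. Klf6 and Klf9 were 2 of the 8 genes with a promoter peak, where 6.58% of 8479 genes passed. The differences of the other 6 lay between -0.13 and 0.32. Without quiescent sample 2 or 3, or without proliferating sample 2 or 3, neither passed, with adjusted p up to 0.062 at Klf6 and 0.107 at Klf9, and without quiescent sample 1 only Klf6 did.

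**Figure D3:**
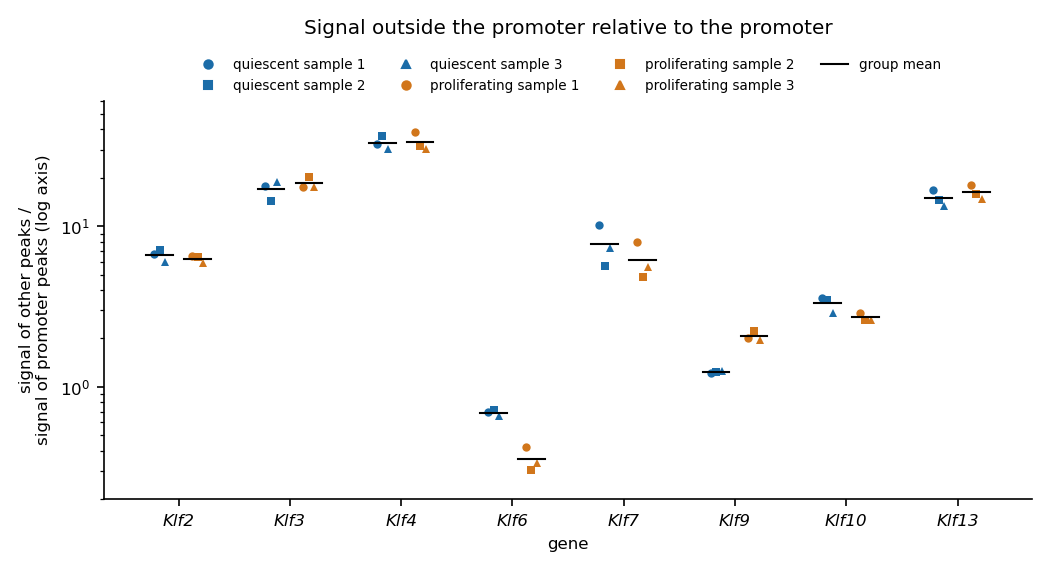
Summed signal of all other peaks of a gene divided by that of its promoter peaks (y axis, log scale) in each sample for the 8 genes with a promoter peak, with black lines for group means. The 3 quiescent samples lie above the 3 proliferating ones at Klf6 and below them at Klf9.

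Klf9 held the family's 1 lower site inside a gene. Its gene lies on the plus strand of chromosome 19 (23141226 to 23168129) and had 7 peaks, of which 6 were tested. At chr19:23150852-23152619, within the gene body, the signal was 654, 570 and 490 in quiescent samples against 1172, 1023 and 1131 in proliferating ones (-0.96 ± 0.15, adjusted p = 0.011). Every quiescent sample was well below every proliferating one. Positions of exons and introns were not used here.

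The Klf9 promoter showed no difference that passed. At chr19:23139810-23141738 it read 949, 925 and 842 against 835, 690 and 898 (0.17 ± 0.14, adjusted p = 0.499), and the groups overlapped. The summed signal of Klf9 was 2107, 2075 and 1903 in quiescent and 2524, 2224 and 2644 in proliferating samples. That difference kept the groups apart but did not pass (-0.28 ± 0.10, adjusted p = 0.13).

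At Klf4 the peaks that passed rose upstream of the gene and fell downstream. The gene lies on the minus strand of chromosome 4 (55527137 to 55532475) and had 24 peaks, 22 of them tested, with 4 higher and 1 lower. All 7 tested upstream peaks had log2 fold changes above 0 (median 1.14), and 7 of 10 downstream peaks had values below 0 (median -0.38). Scaled to total recovered reads, 7 of 7 were above 0 and 8 of 10 below. On that scale 31.9% of all peaks lay above 0, so most lay below it, as most downstream ones did. The difference between the flanks was not tested.

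The strongest Klf4 peak was one of those that rose. It lies 52.8 kb upstream, at chr4:55585294-55587333, and held 1330, 1034 and 1240 in quiescent samples against 833, 626 and 688 in proliferating ones (0.75 ± 0.15, adjusted p = 0.0263). Closest to the gene, 10.2 kb upstream at chr4:55542722-55543217, the values were 82.6, 103 and 73.9 against 30.8, 21.5 and 34.1 (1.56 ± 0.29, adjusted p = 0.0192). In both, no proliferating sample reached the lowest quiescent one.

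Farther upstream, chr4:55580732-55581508 at 48.3 kb gave 144, 196 and 177 against 64.2, 70.9 and 88.6 (1.20 ± 0.23, adjusted p = 0.0202). At 97.1 kb, chr4:55629574-55630538 gave 353, 345 and 325 against 175, 129 and 163 (1.14 ± 0.18, adjusted p = 0.0126). This last site was among those closest to the 100 kb limit. On the other flank, 56.9 kb downstream at chr4:55469706-55470286, the signal fell to 210, 222 and 166 from 450, 425 and 389 (-1.08 ± 0.18, adjusted p = 0.0132). No quiescent value reached the lowest proliferating one there.

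The Klf4 promoter was weak in both groups. Its strongest peak, chr4:55531299-55532286, read 75.3, 54.3 and 96.6 against 39.5, 63.8 and 79.1, with overlapping groups (0.32 ± 0.33, adjusted p = 0.599; -0.18 when scaled to total recovered reads). The 3 promoter peaks made up 2.94% of the gene's summed signal, against 65.0% at Klf6. The sum over all Klf4 peaks was 4771, 4623 and 4954 against 4410, 4235 and 4288, groups that did not overlap, and did not pass (0.15 ± 0.08, adjusted p = 0.257).

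Klf2, the factor best known for keeping lymphocytes at rest, had 1 higher site, at the end of the gene. The gene lies on the plus strand of chromosome 8 (72319062 to 72321654) and all its 12 peaks were tested. The peak at chr8:72320982-72323562 starts within the gene and runs past its end. It held 773, 816 and 762 in quiescent samples against 464, 459 and 488 in proliferating ones (0.73 ± 0.13, adjusted p = 0.0152). Values within each group lay close together and far from the other group.

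The Klf2 promoter, at chr8:72317216-72319468, read 733, 617 and 654 against 627, 638 and 706 (0.02 ± 0.13, adjusted p = 0.941). The groups overlapped fully. The strongest Klf2 peak, 14.4 kb upstream at chr8:72303088-72304658, held 1578, 1604 and 1292 against 889, 1164 and 1110. Its groups did not overlap, and it did not pass as fitted with group only (0.50 ± 0.15, adjusted p = 0.074). It passed with the replicate block (adjusted p = 0.0175) and with limma-voom on recovered reads (0.56, adjusted p = 0.0235). In those fits 18.3% and 15.0% of all peaks passed. Over the 12 peaks, 5 log2 fold changes were above 0 and 7 below. When scaled to total recovered reads there were 3 and 9, where 31.9% of all peaks were above 0.

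Klf10 and Klf13, known from TGF-beta signalling and from chemokine control, had 1 of 15 (6.67%) and 2 of 37 (5.41%) tested peaks that passed, near the 6.72% of all peaks. At Klf10 (chromosome 15, 38291464 to 38300711, strand not given in the table used) 15 of 18 peaks were tested and 1 was higher. At chr15:38310207-38310595, 9.5 kb from the gene, it read 141, 243 and 199 against 102, 78.2 and 68.4 (1.21 ± 0.26, adjusted p = 0.0304). All quiescent samples were above all proliferating ones, with quiescent sample 1 the lowest of its group. The strongest Klf10 peak was the one at a gene end counted as its promoter, chr15:38300128-38303739, with 451, 527 and 629 against 642, 577 and 645 and overlapping groups (-0.22 ± 0.16, adjusted p = 0.429).

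Klf13, on the minus strand of chromosome 7 (63886351 to 63938915), had by far the most signal of the 9 genes. Its 42 peaks summed to 12869, 12579 and 13342 in quiescent and 12725, 12820 and 12893 in proliferating samples (0.01 ± 0.06, adjusted p = 0.921). Among 37 tested peaks, 2 were lower and none higher. One lies 47.2 kb upstream at chr7:63986143-63987430, with 137, 117 and 142 against 225, 230 and 227 (-0.79 ± 0.18, adjusted p = 0.0345). At the other, 93.7 kb upstream at chr7:64032618-64033776, the values were 190, 130 and 116 against 287, 276 and 246 (-0.92 ± 0.22, adjusted p = 0.0419). Neither had overlapping groups. The strongest peak, in the gene body at chr7:63910350-63912989, read 1940, 1969 and 2099 against 2244, 2262 and 2322 (-0.19 ± 0.09, adjusted p = 0.271). The strongest promoter peak, chr7:63938450-63940736, read 405, 471 and 476 against 400, 429 and 475, with overlapping groups (0.05 ± 0.15, adjusted p = 0.867).

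Klf7 had 2 higher sites next to each other and none lower. The gene lies on the minus strand of chromosome 1 (64029448 to 64122345), and 22 of its 23 peaks were tested. At chr1:64190563-64191147, 68.2 kb upstream, the signal was 93.6, 84.7 and 84.9 in quiescent and 33.5, 29.0 and 27.7 in proliferating samples (1.52 ± 0.25, adjusted p = 0.0133). Its neighbour at chr1:64189127-64190030 held 194, 159 and 202 against 96.3, 103 and 107 (0.84 ± 0.19, adjusted p = 0.0369). Both separated the groups in all samples. Over the 22 peaks 18 log2 fold changes were above 0 and 4 below. When scaled to total recovered reads there were 14 and 8, where 31.9% of all peaks were above 0.

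At the Klf7 promoter, chr1:64119869-64122773, the signal was 653, 731 and 640 against 719, 735 and 736, with overlapping groups (-0.12 ± 0.13, adjusted p = 0.619). The strongest peak, 41.0 kb downstream at chr1:63986890-63988403, varied with the sample number instead. It held 1171, 338 and 524 against 1738, 634 and 796, so that sample 1 was by far the highest of each group and the groups overlapped. It did not pass as fitted (-0.69 ± 0.47, adjusted p = 0.405) and passed as lower with the replicate block (adjusted p = 0.00334).

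Of the CtBP-recruiting repressors, Klf3 had 1 higher site. The gene lies on the plus strand of chromosome 5 (64803521 to 64832901), and all 12 peaks were tested. At chr5:64834902-64835771, 2.0 kb past the gene, the values were 245, 232 and 239 in quiescent and 121, 120 and 114 in proliferating samples (1.01 ± 0.17, adjusted p = 0.0149). Both groups were tight and far apart. All 7 tested downstream peaks of Klf3 had log2 fold changes above 0 (0.07 to 2.38). Scaled to total recovered reads, 5 of 7 did, against 31.9% of all peaks. The highest of these 7, at chr5:64834395-64834682, did not pass (adjusted p = 0.0787). It rested on 1 recovered read in proliferating sample 1, and ran from 1.49 to 2.89 with 1 sample left out.

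The strongest Klf3 peak, in the gene body at chr5:64811026-64814173, read 1057, 1284 and 1317 against 1138, 1479 and 1499 with overlapping groups (-0.17 ± 0.15, adjusted p = 0.543). Its strongest promoter peak, chr5:64802125-64803609, read 133, 196 and 161 against 137, 143 and 160 (0.14 ± 0.21, adjusted p = 0.721), and was -0.14 when scaled to total recovered reads. That peak and 2 more of Klf3 also overlap the predicted gene Gm38457, as 2 peaks in Klf13 overlap E030018B13Rik, and the signal of such peaks cannot be assigned to 1 gene.

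Klf12 had little open chromatin and a difference in summed signal that depended on sample 1, the highest of each group. Its long gene body lies on the minus strand of chromosome 14 (99866181 to 100285891). It had 9 peaks, 4 of them strong enough to test, and none within 1 kb of the start listed in the promoter table. That start lies 136 kb inside the gene as the gene table bounds it, so the absence of a promoter peak refers to that start alone. A peak too weak to test, chr14:100284931-100285131, lies within 1 kb of the gene's outer end. The sum was 363, 126 and 98.5 in quiescent and 863, 193 and 238 in proliferating samples. Quiescent sample 1 lay above proliferating samples 2 and 3. The difference of -1.04 ± 0.61 did not pass (adjusted p = 0.332) and was -1.61 without quiescent sample 1 and -0.37 without proliferating sample 1. It passed with the replicate block (adjusted p = 0.00346), where 21.5% of all genes did. The strongest peak, chr14:100210549-100212046, had 192, 36.9 and 48.8 against 598, 92.1 and 141, and likewise passed with the block (adjusted p = 0.000872) and not without (-1.48 ± 0.74, adjusted p = 0.262).

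**Figure D4:**
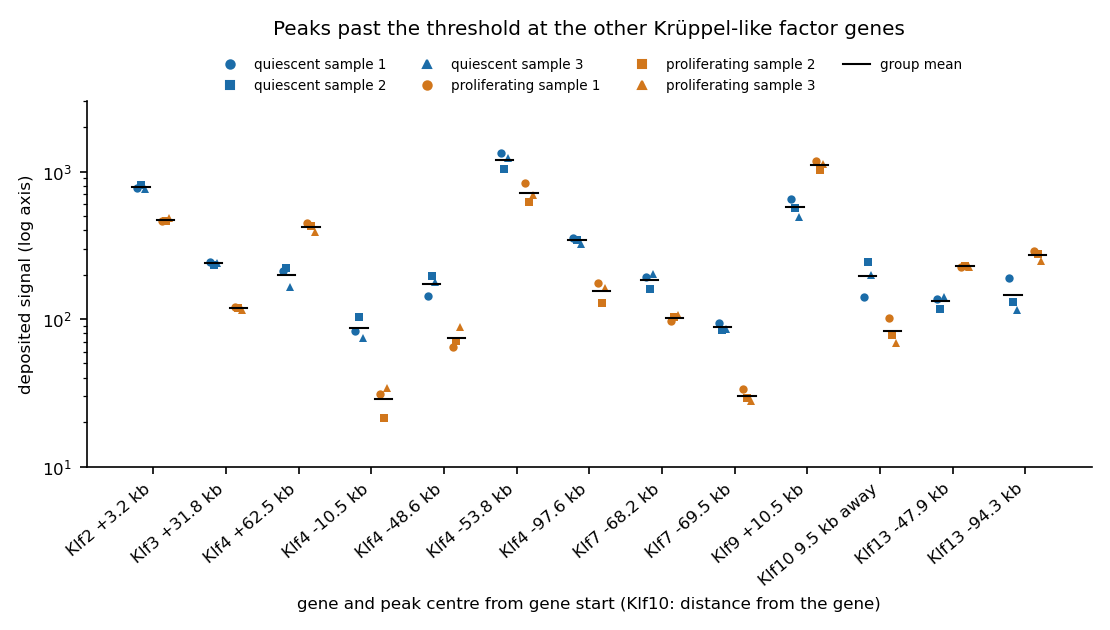
Deposited signal (y axis, log scale) in each sample at the 13 peaks that passed at genes other than Klf6, with black lines for group means. Peaks are named by gene and by the distance of the peak's centre from the gene start in kb (x axis), and that of Klf10 by its distance from the gene. The quiescent samples lie below the proliferating ones at 4 peaks and above them at the other 9.

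By summed signal Klf13 came first of the 9 genes in all 6 samples and Klf12 last. A sum grows with the number and width of a gene's peaks and is not a level per length. Between these ends the means over 6 samples were 5506 for Klf7, 4926 for Klf2, 4547 for Klf4, 3743 for Klf3, 3361 for Klf6, 2354 for Klf10 and 2246 for Klf9. The ranges over the samples of neighbouring genes in this order overlapped, except that those of Klf4 and Klf3 did not and that Klf13 and Klf12 stood apart from the rest. Apart from Klf6, the log2 differences between groups lay between -0.28 at Klf9 and 0.20 at Klf3, Klf12 aside.

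**Figure D5:**
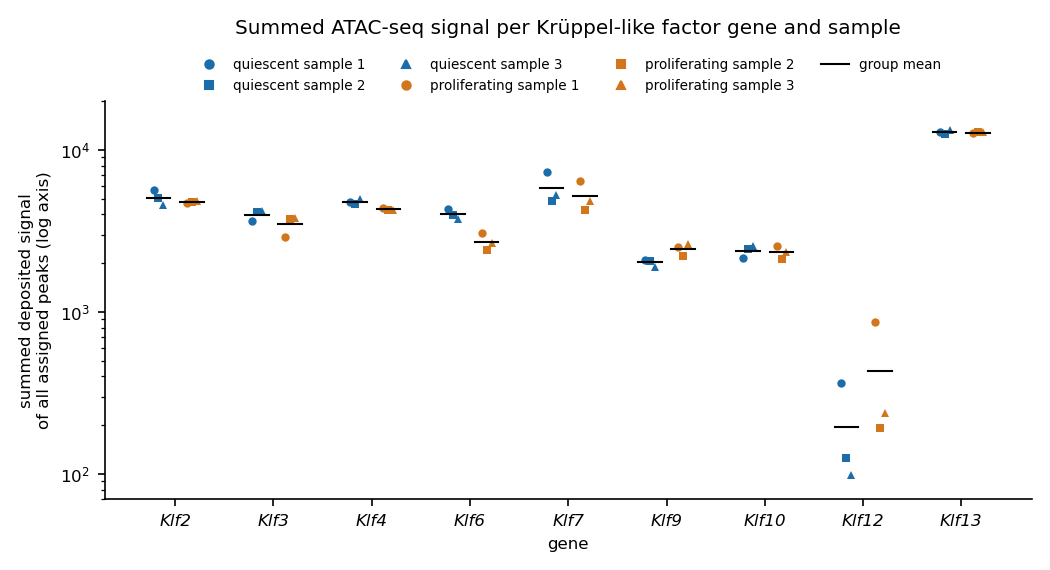
Deposited signal summed over all peaks of a gene (y axis, log scale) in each sample, with black lines for group means. Klf6 has the 3 quiescent samples (3770 to 4296) above the 3 proliferating ones (2406 to 3066), and Klf12 varies most between samples of 1 group.

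The genes whose summed signal followed Klf6 and Klf12 most closely were sought among 2696 genes with at least 10 peaks, by Pearson's r over the 6 samples, as a description. Klf6 was most like Kcmf1, Gm4846 and Cpeb3 (r = 0.997, 0.996 and 0.991). Klf12 was most like Ntm, Cryl1 and Slain1 (r = 0.998, 0.996 and 0.995). With 6 samples such values are common: 180 genes had an r above 0.9 with Klf6 and 186 with Klf12. Within the Klf12 trio, too, sample 1 was the highest of each group, as in Ntm with 1390, 740 and 657 against 2135, 990 and 1084.

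The rest of the family and its Sp relatives had no peak that passed as higher. Among 17 other Klf and Sp genes, 14 had a peak, and of their 68 tested peaks none was higher and 2 were lower (2.94%, median log2 fold change -0.15). Klf5, Klf8 and Klf15 had no peak, and the table held 0 peaks on the X chromosome, where Klf8 lies. The lower ones were a peak near Klf17 (15.4 ± 6.05 SD against 57.9 ± 12.3, log2 fold change -1.89 ± 0.38 SE, adjusted p = 0.0247, n = 3 per group) and the promoter peak of Sp8. The Sp8 peak read 40.1, 43.3 and 47.7 against 97.0, 81.9 and 80.3 (-0.97 ± 0.24, adjusted p = 0.0445). By summed signal Sp8 (-0.96, adjusted p = 0.0452) and Sp4 (-0.50, adjusted p = 0.0498) passed as lower, where 7.63% of all genes passed. At an unadjusted p under 0.05 there were 4 higher and 9 lower peaks (19.1%, against 24.2% of all peaks). With limma-voom on recovered reads there were 0 higher and 7 lower (10.3%, against 15.0%), and with the block 2 higher and 6 lower (11.8%, against 18.3%). Each of these shares was below that of all peaks.

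At genes that act on or with Krüppel-like factors, the peaks that passed were mostly higher, at a share near that of all peaks. Of 261 tested peaks at 19 regulators and cofactors, 14 were higher and 2 lower (6.13%, median 0.11), with 6 genes only higher, 1 only lower, 1 both and 11 neither. Limma-voom on the recovered reads called 17 higher and 15 lower (12.3%, against 15.0% of all peaks). The summed signals of Mef2a (0.35, adjusted p = 0.0366) and Crebbp (0.49, adjusted p = 0.0352) passed as higher, where 7.63% of all genes passed. The Mef2 factors, which drive Klf2 and Klf4 transcription downstream of the kinase Erk5, had higher peaks at Mef2a (4 of 21), Mef2c (2 of 51) and Mef2d (1 of 18). Map2k5, the kinase that activates Erk5, had 1 higher peak. Foxo1, which activates Klf2 in lymphocytes, had 4 of 75 peaks higher. Ctbp2, the corepressor used by Klf3 and Klf12, had 1 lower peak in its body (308 ± 42.8 SD against 743 ± 77.0, log2 fold change -1.27 ± 0.16 SE, adjusted p = 0.0079). The promoter of the acetyltransferase gene Crebbp read 177, 129 and 162 against 77.5, 78.5 and 82.1 (0.95 ± 0.21, adjusted p = 0.0319).

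Target genes known in lymphocytes or for growth arrest gave 7 higher and 2 lower of 127 tested peaks (7.09%, median 0.17), a share likewise near that of all peaks, and 8 and 9 by limma-voom on the recovered reads (13.4%, against 15.0%). No promoter peak passed among the 16 tested, also with limma-voom on the recovered reads, and 3 had an unadjusted p under 0.05. Of all promoter peaks, 2.19% and 8.47% passed in these fits, and 12.7% had an unadjusted p under 0.05. Among the higher sites were peaks at S1pr1, the receptor that lets lymphocytes leave tissues (4 of 29), and at Ccl5 (1 of 4). By summed signal 1 of the 11 genes passed as higher, Ccl5 (1.56, adjusted p = 0.01), and 2 as lower, Cdkn1a (-0.54, adjusted p = 0.0263) and Myc (-0.46, adjusted p = 0.0374). Of all 14255 genes tested, 7.63% passed by summed signal. At Cdkn1a, the gene of p21, a peak fell to 490 ± 81.4 (SD) from 1237 ± 110 (-1.34 ± 0.15 SE, adjusted p = 0.00651), and at Myc a peak fell as well. The 11 genes split into 3 with higher, 2 with lower and 6 with no such peaks.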

How the data were processed

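ATAC-seq libraries of 6 samples, 3 per group, were made with a commercial kit and sequenced in 2 runs each, per the labels' protocols. Alignment and peak calling used mm10, Bowtie2, SAMtools and MACS2, per the submitters' processing notes. How the transposase offset was treated, and all versions and settings, were not given in the sources used here. For every peak the authors deposited a signal per sample, not whole counts. The steps between low values changed with peak strength, so the authors' scaling depended on intensity. Dividing by the steps recovered reads. Of the values of 1 to 100 reads, 96.3% to 100% per sample were whole to within 0.1.

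Peaks were assigned to RefSeq protein-coding genes by position. The 10% of peaks (or genes) with the lowest mean were left out, and log2(value + 1) was tested with limma 3.58.1 (intensity trend, group only, R 4.3.3) over all 87411 peaks, 14255 gene sums or 8479 ratios, with Benjamini-Hochberg adjustment and a threshold of 0.05. The added 1 shrinks fold changes of weak peaks. Compared with recovered reads scaled to their total, however, the fold changes of weak peaks were larger or smaller. They were 2.20 against 1.55 at chr13:5888728-5889047 (Klf6) and -1.22 against -1.60 at chr8:72301604-72301865 (Klf2). The fitting function was also run on simulated data with independent noise of equal spread in all samples. That simulation held neither the likeness of same-numbered samples nor their unequal depth. It therefore cannot show how the calls here depend on these. The design had foreseen either whole counts or a scaled signal, and the test for the latter was used. Same-numbered samples deviated together from their group means (r = 0.43, 0.29 and 0.21 over peaks), so the numbers were taken to pair the samples. Samples of other numbers gave r from -0.36 to 0.22, the highest for quiescent sample 2 with proliferating sample 3, so numbers 2 and 3 were not told apart from each other. Deviations within a group cancel in sum, so likeness of the samples numbered 1 alone tends to make r positive among numbers 2 and 3. A fit with the replicate number as a block was added, its pairing thus chosen from these same data. Alternatives were the pseudocount, filter, scaling, trend, distance limit, promoter window, limma-voom on recovered reads and leaving out each sample. Limma-voom without quiescent sample 2 or 3 was chosen after seeing the data.

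For each gene, values per sample are given for its strongest promoter peak, its strongest peak and, of the peaks that passed, the one that changed most in each direction; at Klf4, Klf6, Klf7 and Klf13 the remaining peaks that passed were added after their values were seen. The genes and lists were chosen with earlier results of these data known. One gene of the target list is counted in its totals but not reported here by name.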

Additional observations from a re-analysis of the deposited data

How the results depend on the processing

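The number of Krüppel-like factor peaks that passed (19) was 12 without the intensity trend, 37 with the replicate block, 10 with a distance limit of 50 kb and 2 with gene-body peaks only, the latter 2 because fewer peaks were counted; for the trend and the block the cause was not tested. Leaving out 1 sample gave 0 to 25 peaks, 0 to 1 gene sums and 0 to 2 ratios, with fewer samples in each fit. With the block 2 gene sums passed, and with gene-body peaks only 0 did. The block changed no call among the named values beyond those given for Klf2, Klf7 and Klf12. Scaling to total recovered reads turned the promoter peaks of Klf3 (-0.14; -0.27 without quiescent sample 2 and -0.16 without quiescent sample 3) and Klf4 (-0.18; -0.033 and -0.37), the Klf10 sum (-0.13) and the ratios of Klf3 (0.10) and Klf4 (0.32). Gene-body peaks only turned the sums of Klf3 (-0.0011) and Klf10 (-0.14), and a 3 kb promoter window the Klf2 ratio (-0.37). None of these reversed values had passed a test, and the cause was not tested. Among recomputed values of single peaks and genes, 584 kept their direction and their side of the threshold, 62 no longer passed, 8 came to pass and 12 reversed. Depth was lowest in proliferating sample 1, where weak peaks rested on few reads.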

Other observations

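Just inside the 100 kb limit of the assignment lay the Klf4 peaks at 97099 and 98663 bp from the gene, with means of 341 against 156 and 41.3 against 14.0 in quiescent and proliferating samples. The nearest peak outside it, at 105869 bp, had means of 163 and 161. Farther out, and chosen after its values were seen, a peak with Klf4 as its nearest gene at 125728 bp upstream (chr4:55658203-55659392) read 244, 226 and 206 in quiescent samples against 828, 890 and 831 in proliferating ones. Its groups did not overlap, and its direction was opposite to that of the 7 tested upstream peaks within the limit.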
